A study of Homo sapiens with 2 samples.

Results

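The genes described here are 40 genes of glycolysis and of the hypoxia response, followed in the pair of H9 substates that the study told apart on Matrigel. They were taken as a list of names, from glucose transporters and glycolytic enzymes to the hypoxia-inducible factors (HIFs), the oxygen-sensing hydroxylases and genes that HIFs switch on. Of the 40 genes, 39 had a named probe, and all 39 were well above background on both arrays, out of 16001 genes measured on both. No probe was matched to ALDOA, so this aldolase was not analysed here.

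H9 is a human embryonic stem cell line. RNA of substate 1 came from cells at passage 35 and RNA of substate 2 from cells at passage 50, both grown, by their labels, on Matrigel in TeSR-E8 medium after earlier culture on vitronectin, and each RNA was hybridised to 1 single-colour Agilent array. Substate 1 stands for colonies that stained strongly for the R-10G epitope and not for vimentin, and substate 2 for looser colonies with weak R-10G and strong vimentin staining. With 1 array per substate there was no replicate and no test, and each difference compares these 2 libraries. The methods place the move to Matrigel at passage 35, so that substate, passage and time on Matrigel cannot be told apart. The labels name no change of oxygen, so neither group is a hypoxia treatment.

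Glycolysis splits glucose into pyruvate, and pyruvate is either burnt in mitochondria or turned into lactate and exported. Human embryonic stem cells are known for a high rate of glycolysis even when oxygen is present. HIF alpha subunits are made constantly, marked by prolyl hydroxylases when oxygen is at hand and then destroyed. When oxygen is short they persist, pair with ARNT and bind the hypoxia response element of genes for glycolysis, blood vessel growth, acid balance and collagen folding.

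The arrays had 57.4% (substate 1) and 54.7% (substate 2) of their 60901 non-control spots well above background, and 0 spots were saturated. All 7 measured pluripotency markers were present on both arrays, with differences from 0.07 for DPPA4 to 0.42 for NANOG on the log2 scale, substate 2 minus substate 1. VIM was 5.76-fold and ZEB1 5.81-fold higher in substate 2, whereas CDH1 and EPCAM were 2.78-fold and 1.74-fold lower. ZEB1 was dim in substate 1, at -2.34. Under normexp background correction, an alternative setting, its log2 difference went from 2.54 to 1.63, and that of VIM from 2.53 to 2.49. The signs of DPPA4 and L1TD1, and of CDH5, PTPRC and HBG1 named below, turned under at least 1 alternative setting. Of 6 fibroblast markers, COL3A1, LUM, DCN and POSTN were not well above background on either array, and COL1A1 and COL1A2 were lower in substate 2 by 0.49 and 0.50 on the log2 scale. The neuronal marker STMN2 was 2.74-fold higher in substate 2, SYT1 was 1.67-fold lower, and the other 4 neuronal markers differed by -0.05 to 0.29. The SYT1 probes differed by -1.22 and -0.27, and the SYT1 difference of -0.74 shrank to -0.28 under normexp background correction. Of the endothelial markers KDR and TEK were lower by 1.64-fold and 1.91-fold, CDH5 differed by 0.32 and PECAM1 was not well above background. Of the blood markers HBB and CD34 were not well above background, and the probes of the others disagreed. The PTPRC probes differed by -0.53 and 0.70, and of the HBG1 probes the first differed by -0.15 while the other was higher in substate 2 by at least 1.60-fold. The part of cells other than stem cells in the differences below was not tested, and more RNA per cell and more cells that make the RNA cannot be told apart.

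Glycolytic enzymes and the carriers that bring glucose in and take lactate out differed in opposite directions between these libraries. Of the 16 measured enzymes 13 had a higher signal in substate 2, with a median difference of 0.29 on the log2 scale. Of all measured genes 59.8% had a difference above 0, and their median was 0.08. By brightness, 13 of the 16, not all of them the same, were in the brightest of 5 equal bins of all measured genes. In that bin 75.3% of genes were higher with a median of 0.20, so the count of higher enzymes was near its share. All 4 carriers had a lower signal in substate 2, with a median of -0.36, where 40.2% of all measured genes were lower. The genes that HIFs switch on outside glycolysis were mixed, 4 higher and 7 lower, with a median of -0.13. The differences were small throughout. Values are log2 signals relative to the 75th percentile of the same array, averaged over the probes of a gene, and differences are substate 2 minus substate 1.

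By the size limit of 1.5-fold, 0 members were higher and 2 were lower, VEGFA and DDIT4, where 4.32% and 5.03% of the 16001 genes passed that limit in the respective direction. The share of lower members was thus close to that of all genes, and their count is no result about these genes. At 2-fold no member passed, beside 0.931% of genes higher and 1.07% lower. The Z-score of the study's methods, with limits of 2 and -2 over all 58201 probes (3.03% above and 3.30% below), called 0 of the 51 probes of these genes, and the largest size among them was 1.52. That value came from an HK2 probe that was not well above background on either array. Among the 50 measured probes a VEGFA probe had the largest size, with a Z-score of -1.17. The spread between probes of the same gene, an SD of 0.23 in the difference over the genes with several probes, serves as a yardstick within the arrays. By it 15 members were higher and 9 were lower by more than that SD, against 32.1% and 19.5% of all measured genes.

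**Figure D1:**
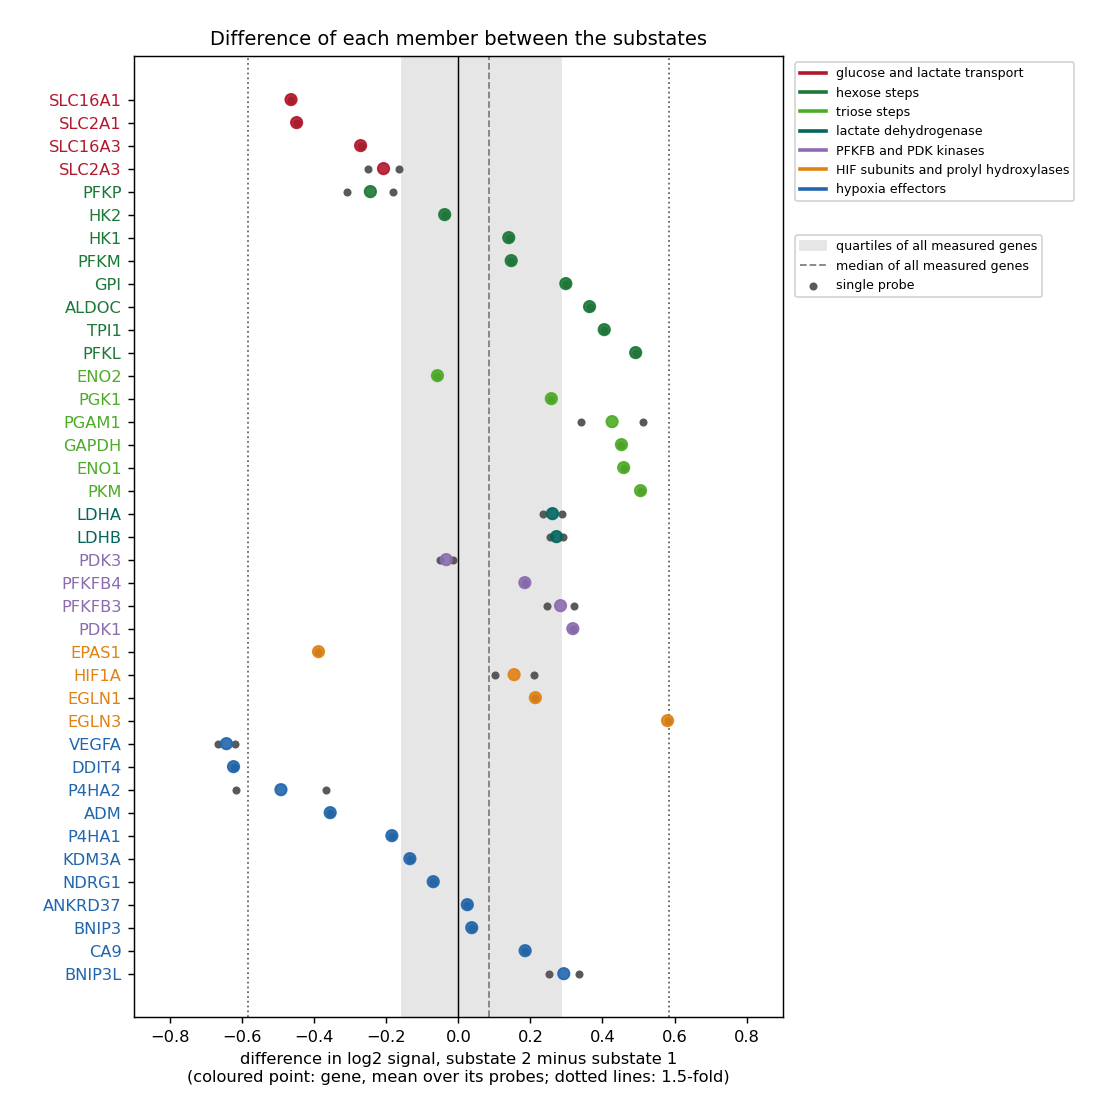
Difference in normalised log2 signal between substate 2 and substate 1 (x axis) for each of the 39 measured genes (y axis), coloured by role. Large points are genes and small points single probes, the grey band spans the quartiles of all measured genes, the dashed line is their median of 0.08, and dotted lines mark 1.5-fold. The 4 transport genes lie left of 0, 13 of 16 enzymes lie right of it, and VEGFA and DDIT4 lie beyond the left 1.5-fold line.

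Transport stood at both ends of the pathway. SLC2A1 (GLUT1), the main glucose carrier of most dividing cells, had a level of 5.65 in substate 1 and 5.20 in substate 2, 1.37-fold lower in substate 2. SLC2A3 (GLUT3), a carrier of high affinity for glucose, had 1.92 and 1.71 as the mean of its 2 probes, whose differences were -0.25 and -0.17. SLC16A1 (MCT1), which moves lactate and pyruvate across the cell membrane together with a proton, went from 3.53 to 3.06, 1.38-fold lower. SLC16A3 (MCT4), the lactate exporter typical of strongly glycolytic cells, went from 0.14 to -0.14. None of these 4 differences changed sign under any of the 10 alternative settings. For SLC2A1, SLC16A1 and SLC16A3, with 1 probe each, the settings that choose among probes could not alter the value. SLC2A1 and SLC16A1 lay at percentiles 8.29 and 7.79 of the differences of all measured genes, and SLC2A3 and SLC16A3 at 20.9 and 16.5.

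The upper steps of glycolysis (hexose steps), from glucose to the triose phosphates, were higher for 6 of 8 measured genes, with a median of 0.22. Isozymes of the same step did not go together. Of the phosphofructokinases, which catalyse the main committed step, PFKL (liver type) had 1.36 in substate 1 and 1.85 in substate 2, a difference of 0.49. PFKM (muscle type) had 4.60 and 4.75, a difference of 0.15. PFKP (platelet type) had 2 probes, of which the first went from 4.95 to 4.65 and the other from 3.54 to 3.36, so that both were lower in substate 2. Of the hexokinases, which trap glucose in the cell as glucose 6-phosphate, HK1 had 4.13 and 4.27 and HK2 had 3.53 and 3.49. These differences of 0.14 and -0.04 lie within the spread between probes, the sign of HK1 turned under quantile normalisation, and that of HK2 turned when the arrays were centred on their median. A further HK2 probe was not well above background on either array. GPI, which converts glucose 6-phosphate to fructose 6-phosphate, went from 5.85 to 6.15. ALDOC, the aldolase typical of brain, went from 1.72 to 2.09, and TPI1, which interconverts the triose phosphates, from 6.44 to 6.85.

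The lower steps (triose steps), which yield ATP, were higher for 5 of 6 genes, and their median of 0.44 was the highest of the 7 role groups. GAPDH, the dehydrogenase of glyceraldehyde 3-phosphate, was printed 10 times on each array. Its spots ran from 7.61 over a median of 7.70 to 7.75 in substate 1 (10 spots) and from 8.07 over 8.14 to 8.21 in substate 2 (9 spots after 1 outlier was left out). Every spot of substate 2 thus lay above every spot of substate 1, and the means differed by 0.45, a 1.37-fold higher signal. PGK1, which makes the first ATP of this stretch, ran from 5.47 over 5.54 to 5.61 in substate 1 and from 5.65 over 5.79 to 5.86 in substate 2 (10 spots each). Its spots did not overlap either, but the gap between the nearest spots was small. PGAM1, which shifts the phosphate of 3-phosphoglycerate, had probe differences of 0.34 and 0.51. ENO1, the enolase of most tissues, went from 6.30 to 6.75, whereas ENO2, the enolase of neurons, had 2.92 and 2.86. PKM, which makes pyruvate and the last ATP, went from 5.18 to 5.68, the highest difference among the enzymes (0.51, 1.42-fold, percentile 93.2 of all measured genes). Both lactate dehydrogenases were slightly higher. LDHA, whose subunits favour lactate, had probe differences of 0.23 and 0.29, and LDHB, whose subunits favour pyruvate, had 0.25 and 0.29. Several of these genes have near-identical processed copies in the genome, and binding of such copies by the probes was not tested.

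**Figure D2:**
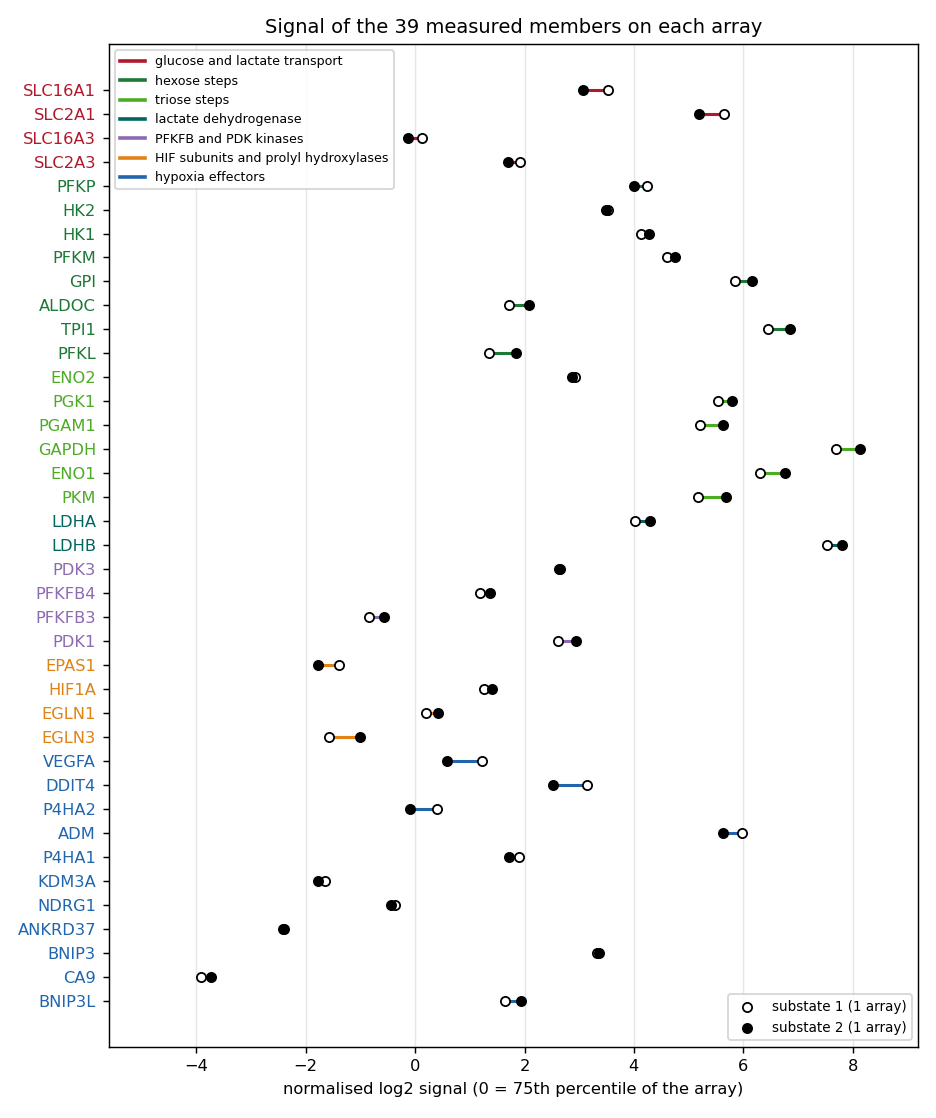
Normalised log2 signal (x axis, 0 at the 75th percentile of the array) of the 39 measured genes (y axis, coloured by role) on the substate 1 array (open circles) and the substate 2 array (filled circles), joined by a line. The lines are short beside the range of signals, and for the transport genes the open circle lies to the right, as for VEGFA, DDIT4, P4HA2 and ADM. Positions of different genes are not comparable as amounts, because probes differ in brightness.

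Over all genes the difference varied with signal. When all measured genes were ranked by signal and cut into 5 equal bins, the median difference ran from -0.01 in the dimmest bin to 0.20 in the brightest, where 75.3% of genes were higher in substate 2. Of the 16 enzymes 13 were in that brightest bin. Among the enzymes themselves the order was not strict. The brightest of the 16, PGAM1, PKM, PGK1, GPI, ENO1, TPI1, LDHB and GAPDH, had differences from 0.26 to 0.51. Of the dimmer ones PFKP, HK1 and PFKM had -0.24, 0.14 and 0.15, and ENO2, HK2 and LDHA had -0.06, -0.04 and 0.26. The dimmest, PFKL and ALDOC, went against the order, with 0.49 and 0.36. Loess centring, which takes out the trend of the difference with signal, left 13 of 16 enzymes above 0, beside 54.5% of all measured genes. Of these, HK1 and PFKM were barely above 0, at 0.007 and 0.002. The median of the enzymes went from 0.29 to 0.13, beside 0.03 for all genes. For the lower steps the median after loess was 0.25, for the upper steps 0.07 and for the lactate dehydrogenases 0.10. The carriers stayed lower, with a median of -0.43 after loess, and SLC2A1 then reached -0.61, past 1.5-fold. Of the hypoxia effectors 8 of 11 were then below 0, where 45.5% of all measured genes were.

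**Figure D3:**
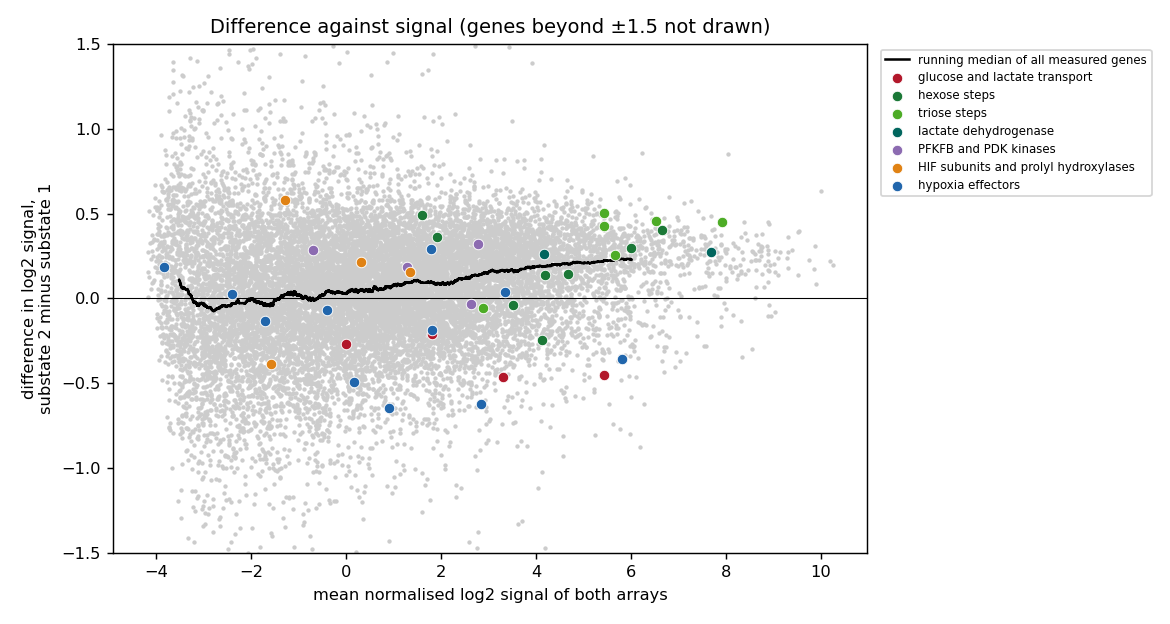
Difference in log2 signal, substate 2 minus substate 1 (y axis), against the mean normalised log2 signal of both arrays (x axis) for all genes measured on both arrays (grey) and the 39 members (coloured by role). The black running median climbs with signal, most triose-step points lie above it at the bright end, and all transport points lie below it.

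The enzymes that steer flux into and out of glycolysis differed by -0.03 to 0.32. PFKFB3 and PFKFB4 make and break fructose 2,6-bisphosphate, the activator of phosphofructokinase. PFKFB3 had probe differences of 0.25 and 0.32, and PFKFB4 went from 1.18 to 1.37. PDK1 and PDK3 are kinases that shut pyruvate out of the mitochondrial pyruvate dehydrogenase complex. PDK1 went from 2.62 to 2.94 (0.32), whereas the PDK3 probes differed by -0.05 and -0.02, and the sign of PDK3 turned when the arrays were centred on their median.

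Among the HIF subunits, HIF1A and EPAS1 (HIF-2 alpha) differed in opposite directions. The HIF1A probe with 10 spots ran from 2.41 over 2.47 to 2.57 in substate 1 and from 2.60 over 2.69 to 2.79 in substate 2, so the spots just failed to overlap, and its other probe differed by 0.10. EPAS1 was dim, at -1.39 and -1.77, 1.31-fold lower in substate 2. Of the prolyl hydroxylases, EGLN1 (PHD2), the main oxygen sensor, went from 0.20 to 0.41. EGLN3 (PHD3), itself a known HIF target, had -1.58 in substate 1 and was higher in substate 2 by a difference of 0.58, just inside the 1.5-fold limit and at percentile 95.5 of all measured genes. Both EPAS1 and EGLN3 rest on 1 dim probe, and with normexp background correction their differences shrank to -0.15 and 0.18. HIF proteins are controlled mainly by their breakdown, which these arrays do not measure.

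Of the 11 hypoxia effectors, the lowest values in substate 2 were those of VEGFA, DDIT4, P4HA2 and ADM. VEGFA, the growth factor that draws in blood vessels, had 2 probes. The first went from 1.88 to 1.21 and the other from 0.56 to -0.06, so that both were lower, by differences of -0.67 and -0.62, and the gene was 1.56-fold lower. DDIT4 (REDD1), an inhibitor of the growth kinase mTORC1 that also answers to other stresses, was printed 10 times. Its spots ran from 3.09 over 3.14 to 3.20 in substate 1 and from 2.43 over 2.54 to 2.56 in substate 2, and it was 1.54-fold lower. ADM, which encodes the vessel-widening peptide adrenomedullin, ran from 5.95 over 5.97 to 6.02 in substate 1 and from 5.56 over 5.62 to 5.67 in substate 2. For DDIT4 and ADM every spot of substate 2 was below every spot of substate 1. Among the 291 probes that were printed 10 times and well above background on both arrays, the spots of the 2 arrays were apart for 63.9%, in 45.0% with substate 2 higher and in 18.9% with substate 2 lower. Such separation covers printing and hybridisation within an array only, and it held for all 5 member probes of this kind.

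**Figure D4:**
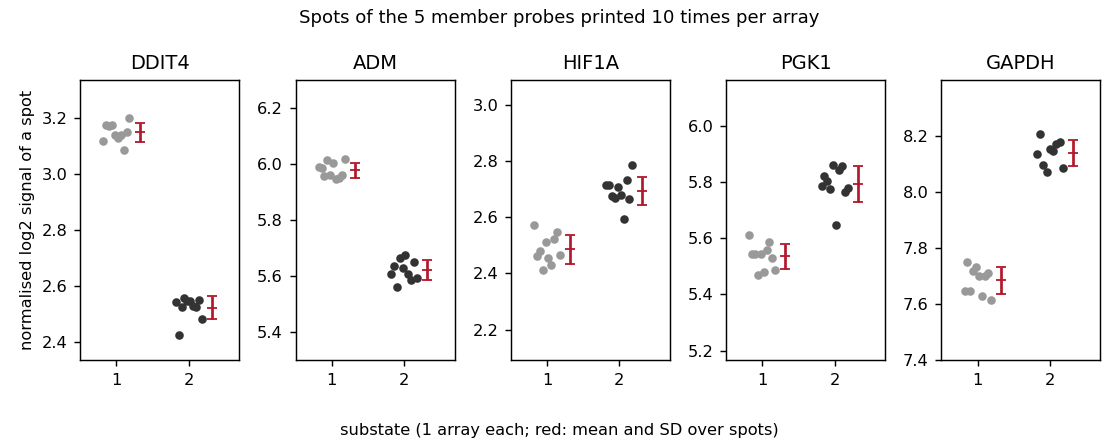
Normalised log2 signal of each spot (y axis) on the substate 1 and substate 2 arrays (x axis) for the 5 member probes printed 10 times per array, with the mean and SD over spots in red. All panels span the same range of the log2 scale. Spots of DDIT4 and ADM are lower and spots of HIF1A, PGK1 and GAPDH higher in substate 2, and in no panel do the spots of both arrays overlap.

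Collagen hydroxylases and histone demethylases use oxygen as the EGLN enzymes do. P4HA1 and P4HA2, the catalytic subunits of collagen prolyl 4-hydroxylase, were both lower. P4HA1 went from 1.90 to 1.72, and the P4HA2 probes differed by -0.62 and -0.37. KDM3A, a demethylase of histone H3, had -1.64 and -1.77. BNIP3 and BNIP3L, which mark mitochondria for removal, were not lower. BNIP3L had probe differences of 0.25 and 0.33, while BNIP3 had 3.33 and 3.37, and its sign turned under loess centring, quantile normalisation and centring on the measured genes. NDRG1, a stress-induced gene widely used as a hypoxia marker, had -0.37 and -0.44. ANKRD37, another HIF target, had -2.41 and -2.39, and its sign turned when the difference was centred on the measured genes. CA9, the carbonic anhydrase that is among the most sensitive HIF-1 targets, was near the lower end of what the arrays measured, with -3.92 and -3.73.

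The regions before the gene starts of 4 members are shown because both a lower pair (DDIT4, ADM) and a higher pair (PGK1, ENO1) carry the core letters of the hypoxia response element. Capitals mark ACGTG or GCGTG on either strand, so CACGT and CACGC are their reverse complements, and a CACGTG would count on both strands. Each run holds the 250 bases before the start in RefSeq, written 5′ to 3′ in the direction of the gene.
DDIT4 upstream region, GRCh38.p14 chr10:72273674-72273923, plus strand: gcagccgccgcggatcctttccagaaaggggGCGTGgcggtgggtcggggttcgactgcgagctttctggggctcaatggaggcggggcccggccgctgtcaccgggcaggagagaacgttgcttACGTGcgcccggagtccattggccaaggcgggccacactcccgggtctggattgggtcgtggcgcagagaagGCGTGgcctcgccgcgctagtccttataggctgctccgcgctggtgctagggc
ADM upstream region, GRCh38.p14 chr11:10304823-10305072, plus strand: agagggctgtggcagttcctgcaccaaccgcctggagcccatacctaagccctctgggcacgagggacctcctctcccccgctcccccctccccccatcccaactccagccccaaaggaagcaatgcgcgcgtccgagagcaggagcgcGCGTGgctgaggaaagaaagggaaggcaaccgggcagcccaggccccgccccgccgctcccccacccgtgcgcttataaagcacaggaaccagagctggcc
PGK1 upstream region, GRCh38.p14 chrX:78103998-78104247, plus strand: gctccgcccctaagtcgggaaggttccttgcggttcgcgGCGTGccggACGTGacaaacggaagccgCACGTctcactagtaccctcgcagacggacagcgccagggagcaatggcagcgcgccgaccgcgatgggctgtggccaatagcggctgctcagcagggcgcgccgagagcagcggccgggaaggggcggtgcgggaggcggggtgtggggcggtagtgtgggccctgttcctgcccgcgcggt
ENO1 upstream region, GRCh38.p14 chr1:8878687-8878936, minus strand: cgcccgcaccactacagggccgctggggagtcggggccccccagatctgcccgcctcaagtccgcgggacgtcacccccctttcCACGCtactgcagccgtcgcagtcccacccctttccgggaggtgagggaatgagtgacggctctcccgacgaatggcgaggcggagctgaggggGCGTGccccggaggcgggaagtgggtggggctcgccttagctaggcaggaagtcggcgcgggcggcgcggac
DDIT4 held 3 matches, ADM 1, PGK1 3 and ENO1 2. Windows were at hand for 35 of the 40 members, 63 in all because a gene can have several starts, and BNIP3L, NDRG1, SLC16A1, SLC2A3 and VEGFA had none in the table. A match was found in 38 of the 63 windows (60.3%), against 43.2% of the 35116 windows of all genes. It was found in 20 of 39 windows (51.3%) of members that were higher in substate 2 and in 15 of 21 windows (71.4%) of those that were lower. The rest belong to ALDOA. Counted by gene, that gap was absent, with a match in at least 1 window for 18 of 22 higher members (81.8%) and 10 of 12 lower ones (83.3%), against 47.4% of all genes. A gene with more windows has more chances of a match. The 35 members had 63 windows, beside 35116 windows for 27305 genes in all, so the shares by gene are not on an equal footing. Windows of the same gene can overlap, so they are not independent. A match describes letters and is not a bound site.

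Other genes of these pathways were taken from 6 lists, whose counts stand beside 59.8% of all measured genes with a difference above 0 and 4.32% higher and 5.03% lower by 1.5-fold. All 7 genes of the pentose phosphate pathway, which branches off at glucose 6-phosphate and supplies NADPH, were higher, with a median of 0.38. Most of them were bright, and in the brightest of the 5 bins 75.3% of all measured genes were higher. After loess centring their median was 0.26, beside 0.03 for all genes, and the lowest value of the list was 0.0004. Of the 11 measured genes for pyruvate entry into mitochondria 10 were higher (median 0.21), and 0 passed 1.5-fold. Their median was 0.14 after loess centring, and a further gene then lay below 0, at -0.03. All 5 genes of serine synthesis and use were above 0 with a median of 0.07 that fell to -0.07 after loess centring, and SHMT1, a serine hydroxymethyltransferase, was higher by 0.59, just past 1.5-fold. Of 23 measured further glycolysis isozymes and regulators 15 were higher (median 0.17). Of these 23 genes PGAM2, the muscle phosphoglycerate mutase, was the only one past 1.5-fold, with -0.02 in substate 1 and 1.12 in substate 2, 2.20-fold higher by 1 probe. SLC16A7 (MCT2), a further carrier of lactate and pyruvate, was well above background in substate 1 alone. It was dim on both arrays, at -3.31 and -4.00, a 1.62-fold lower signal in substate 2. Of the other further carriers SLC2A8 was higher by 0.17 and SLC16A8 by 0.05, the latter with a sign that turned under 1 setting. SLC2A4, SLC2A10, SLC2A12 and SLC2A14 had differences of -0.26, -0.05, -0.07 and -0.28, and SLC2A2 was not well above background. Lower bounds are given for HBG1 and VLDLR. They set the brighter value against the lowest signal well above background on the dimmer array. The shares of 15 of 23 and, below, 11 of 15 higher genes were near that of all genes. Of 15 further HIF pathway components 11 were higher (median 0.19), and CITED2, which competes with HIF for its coactivators, was the only one past 1.5-fold, 1.56-fold higher with probe differences of 0.63 and 0.65.

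The further hypoxia targets, like the effectors above, were mixed. Of 33 measured genes 14 were higher and 19 lower, with a median of -0.08, where 40.2% of all measured genes were lower. Past 1.5-fold 2 were higher and 4 lower, beside 4.32% and 5.03% of all measured genes. STC2, a secreted glycoprotein hormone, went from 0.34 to -0.85 and was 2.29-fold lower. VLDLR, a lipoprotein receptor, was 1.94-fold lower by the probe measured on both arrays, while for the other, which was dim in substate 2, the signal was lower by at least 1.96-fold. CA12, a carbonic anhydrase, was 1.59-fold lower, at the dim levels of -2.33 and -3.00. Its difference of -0.66 shrank to -0.23 under normexp correction, short of 1.5-fold. On the higher side were PPP1R3C, a glycogen-targeting subunit of protein phosphatase 1 (1.72-fold, from -1.58 to -0.80), and HILPDA, a lipid droplet protein (1.52-fold, from 3.72 to 4.33). Under normexp correction their differences of 0.79 and 0.61 shrank to 0.54 and 0.52, short of 1.5-fold. After loess centring PPP1R3C stayed past that limit, at 0.80, and HILPDA did not, at 0.48.

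**Figure D5:**
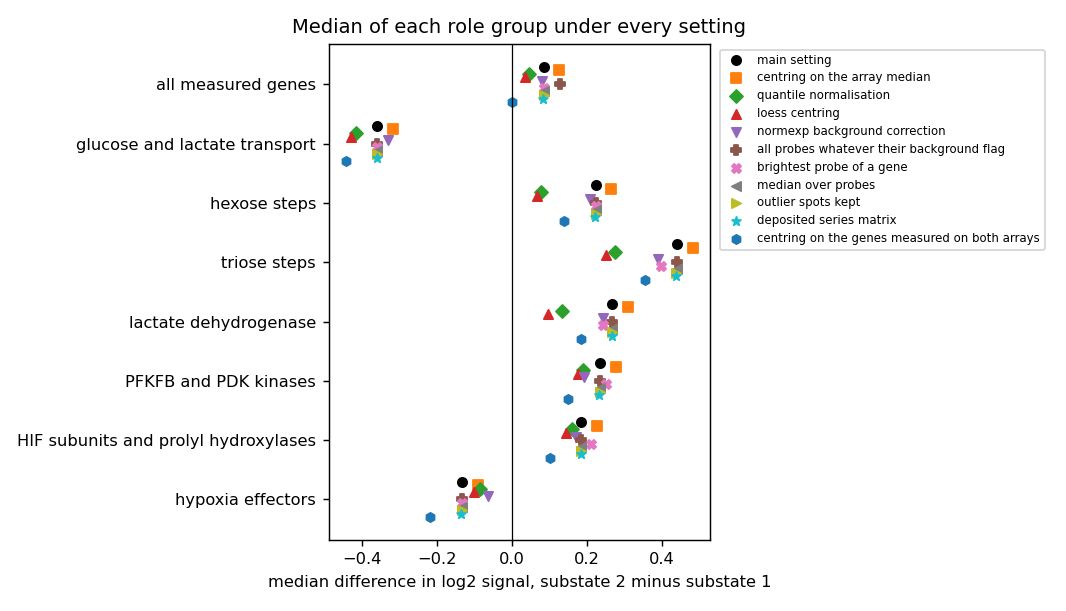
Median difference in log2 signal, substate 2 minus substate 1 (x axis), of all measured genes and of the 7 role groups (y axis) under the main setting (black circle) and 10 alternatives (other symbols). The carriers stay between -0.44 and -0.32 and the hypoxia effectors between -0.22 and -0.07, while the hexose steps, triose steps and lactate dehydrogenases stay above 0 and lie lowest under loess centring.

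The direction of each role group held under every setting tried, but its size did not. The median of the lower steps ran from 0.25 to 0.48, that of the upper steps from 0.07 to 0.26 and that of the lactate dehydrogenases from 0.10 to 0.31. The carriers ran from -0.44 to -0.32 and the hypoxia effectors from -0.22 to -0.07. Over all measured genes, 691 were higher and 805 lower by 1.5-fold, which became 889 and 691 with the arrays centred on their median, and 472 and 1094 with the difference centred on the measured genes.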

How the data were processed

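Messenger RNA was measured on 2 single-colour arrays, 1 per substate, grouped by their source labels. The authors deposited the scanner output, with a background-subtracted intensity for every spot. According to the headers of the deposited files, Feature Extraction 11.5.1.1 (protocol GE1_1105_Oct12, array design on hg19) was used for extraction. The authors also deposited log2 values shifted to the 75th percentile, used as an alternative. A shift of that kind assumes that most signal does not change.

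Intensities under 1 were set to 1 (0 spots), log2 was taken, outlier spots (71 and 101) were left out, replicate spots were combined as their mean, and the 75th percentile over the 58201 non-control probes of the array was subtracted. Probes were named through the RefSeq accession in a table for GRCh38.p14 (31104 probes, 53.4%). Gene values are means over probes well above background on both arrays. No test was possible, and the number of arrays limits the precision. All 40 members are named, and of the other lists the 3 largest differences in each direction past 1.5-fold and the further carriers. The members and lists were chosen with earlier results of these data known. Alternatives were the array median, quantile normalisation, loess (span 0.3), normexp (offset 50, on the median spot signal because no mean signal column was present), all probes, the brightest probe, the median probe, outliers kept, the series matrix and, added after seeing the data, centring on the measured genes. Python 3.11.15, statsmodels 0.14.6 and limma 3.58.1 were used, and the code was tested on simulated data.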

Additional observations from a re-analysis of the deposited data

How the results depend on the processing

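No paired analysis was possible because there was a single array for either substate. No member past 1.5-fold was called higher in the main setting, but 1 was, EGLN3, with the arrays centred on their median (1), after quantile normalisation (1) and after loess centring (1). Of the 2 members past 1.5-fold lower, 1 was left with the arrays centred on their median (VEGFA) and 1 under normexp correction (DDIT4), while SLC2A1 joined them after loess centring and P4HA2 when the brightest probe was taken. The medians of the members, role groups and lists moved by less than the SD between probes of a gene (0.23). Among the counts by direction, the hypoxia effectors went from 4 higher and 7 lower to 2 and 9 with centring on the measured genes, an alternative chosen after seeing the data, the hexose steps from 2 lower to 1 with the array median and 3 after quantile normalisation, and the glycolytic enzymes had 12 to 14 of 16 higher. Counts of the other lists were not recomputed under the alternatives. For single members 3 values moved by more, HK2 to -0.47 when its dim probe was let in, and EPAS1 to -0.15 and EGLN3 to 0.18 under normexp correction, and the cause was not tested. Keeping outlier spots, the median over probes and the series matrix changed no sign among the 39 members, and they alter few input values, so they say little about stability. Dim genes such as CA9 and ANKRD37 carry little signal above background, and 28 of the 39 members rest on 1 probe.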

Other observations

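GAPDH was the reference gene of the RT-PCR in the study. On these arrays it was at percentile 90.6 of the differences of all measured genes, and 9.37% of them (1500 genes) were higher in substate 2 by more than GAPDH was. Relative to GAPDH instead of the 75th percentile, 4 of the 39 members would have a higher and the others a lower signal in substate 2, GAPDH itself being level by definition. The GAPDH difference was 0.45 in the main setting, 0.24 after loess centring and 0.41 under normexp correction, from 1 probe and 1 array per substate.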
